A study of Mus musculus and blank sample with 768 samples.

Results

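Lymph node endothelial cells sorted without the GFP label were divided by a single gene, Prox1, which encodes the transcription factor that sets lymphatic identity. The wells were chosen by their Prox1 reads: those with at least 1 (Prox1-positive wells) were set against wells with 0 Prox1 reads (Prox1-zero wells) from the same gate and the same 3 pools. The gate gave 48, 36 and 32 wells in pools A, B and C. A well was kept with 50000 or more reads in genes, 1000 or more detected genes and no more than 25% of its reads from mitochondrial genes, which held for 74 of these wells and for 592 of 768 in the series. The 74 wells were 27 Prox1-positive wells (14 from pool A, 12 from pool B and 1 from pool C) and 47 Prox1-zero wells (26, 14 and 7).

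The series sequenced single cells of mouse tumours, lymph nodes and blood with a modified SMART-seq2 protocol, which reads full-length cDNA and carries no molecular identifiers. Every cell on both sides was gated as CD45-, CD31+ and GFP-, which removes leukocytes and keeps vessel-lining cells, and the GFP+ counterpart is named in the labels as the Csf1r lineage. The labels give no genotype, strain, age or treatment for the lymph node mice, do not say which animal a well came from and do not say what a pool is. Each side was therefore treated as 1 sample: differences could not be set against variation among animals, no p-value is given, and the 95% intervals cover counting error only.

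Lymph nodes hold vessels of both kinds. Lymphatic endothelium lines the sinuses that carry lymph, antigen and dendritic cells through the node, and Prox1 must be kept on for it to stay lymphatic. Blood endothelium forms arteries, capillaries and the high endothelial venules, specialised veins that display sulphated sugars and chemokines so that lymphocytes can leave the blood. VEGF signalling is split along the same line, with Flt1 as a receptor typical of blood vessels and Flt4 as a receptor typical of lymphatic vessels.

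Because Prox1 chose the sides, its values are a description. Prox1 (chromosome 1, 190118035 to 190170714, minus strand, GENCODE vM21 on GRCm38) had 1.01 CPM in the lowest, 216.7 in the median and 1136 in the highest Prox1-positive well, where CPM are the reads of a gene per 1000000 reads in genes. Summed over the side this came to 436 CPM (427 to 445). The reads fell into separate ranges: 20 wells held 14 to 1692 Prox1 reads, 0 wells held 4 to 9, and 7 wells held 1 to 3. Just inside the rule stood 3 wells with 1 read, and just outside it the 47 wells with none. The 2 empty wells and the 42 wells left out held 0 Prox1 reads.

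Depth differed between the sides. Prox1-positive wells held 69763, 839804 and 1833137 reads in genes (lowest, median and highest), and Prox1-zero wells 77135, 503277 and 1971891. The median well had 2751 genes with a read in Prox1-positive and 2279 in Prox1-zero wells, or 2453.5 and 2073 with wells thinned to 100000 reads. Thinning left 26 Prox1-positive and 45 Prox1-zero wells, and 21 of the 26 kept a Prox1 read. Among the measured genes of the lists described below, thinning turned round which side had the larger share of wells for 12, Plvap, Kdr and Tie1 among them.

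The gene Pecam1, which encodes CD31, had reads in 27 of 27 Prox1-positive and 43 of 47 Prox1-zero wells, and Ptprc, which encodes CD45, in 0 of 27 (a limit of 11.1%) and in 1 of 47. Some wells carried the markers of the other side. The 3 wells with 1 Prox1 read, all of pool A, held 0 reads of the lymphatic genes Mmrn1 and Tbx1 but 9 to 11 of 15 blood endothelial markers. In contrast, the 4 wells with 2 or 3 Prox1 reads held Stab2 at 2416 to 4114 CPM and 0 reads of Flt1. Conversely, 4 Prox1-zero wells (1 of pool A and 3 of pool C) held Mmrn1 at 50.8 to 1177 CPM and 0 reads of Flt1, Ly6c1 and Nrp1. These 3 and 4 wells are called the 7 contrary wells. They were picked after their values were seen, the 3 by their 1 Prox1 read and the 4 by 10 or more Mmrn1 reads. Values without them are given for some of the results they move. Because of how the wells were picked, such values describe the markers and do not test the split.

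**Figure D1:**
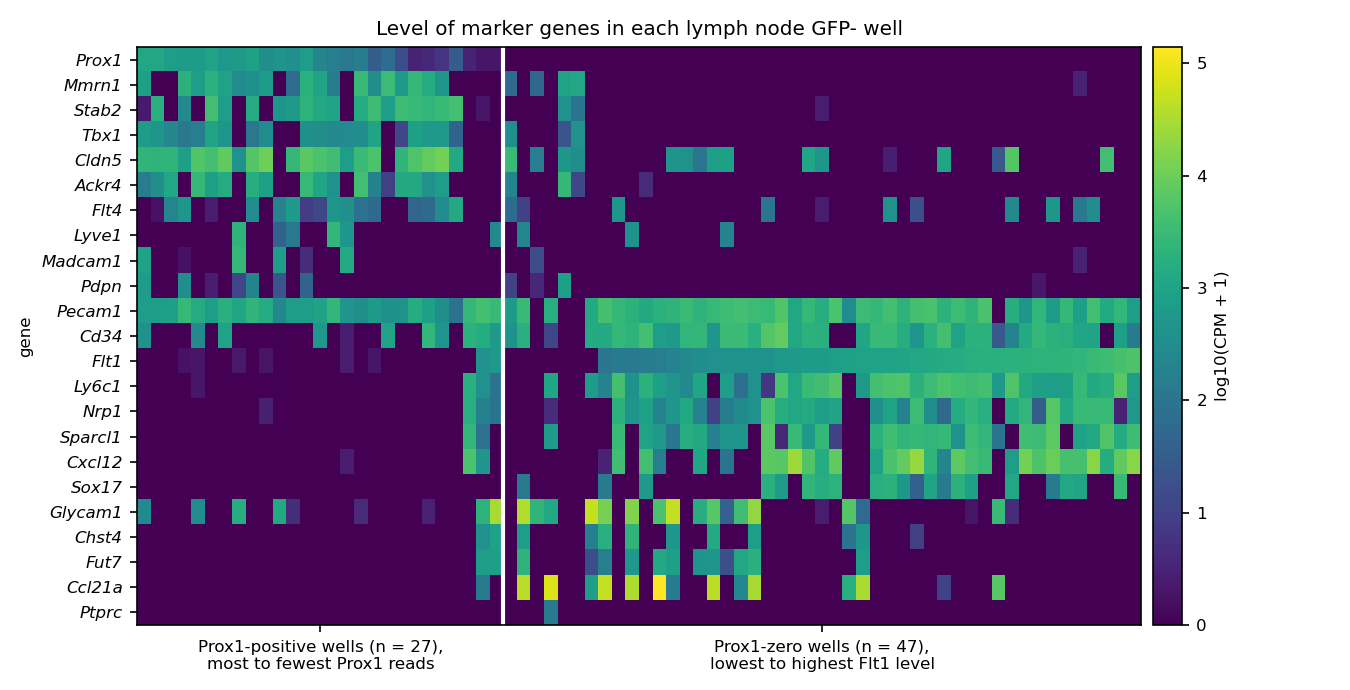
Level of 23 genes (rows) in each of the 74 wells (columns) as log10(CPM + 1), with the 27 Prox1-positive wells left of the white line, ordered from most to fewest Prox1 reads, and the 47 Prox1-zero wells right of it, ordered from lowest to highest Flt1 level. Mmrn1, Stab2 and Tbx1 fill most columns on the left, Flt1, Ly6c1 and Cd34 most columns on the right, and the 3 columns next to the line on the left carry the right-hand pattern.

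Of 10702 measured genes other than Prox1, 3125 (29.2%) were at least 2-fold higher in Prox1-positive wells and 2536 (23.7%) at least 2-fold lower. The median log2 ratio over the same 10702 genes was 0.15. The ratio is that of CPM plus 1, Prox1-positive over Prox1-zero, which understates the difference of low genes. A stricter rule, which also asked for 20 CPM and 25% of wells on the higher side and the same direction in pools A and B, was met by 739 genes higher (6.91%) and 434 lower (4.06%). Without the 7 contrary wells 31.6% were higher and 24.7% lower. Of the measured genes 424 had 0 reads in Prox1-positive and 455 had 0 reads in Prox1-zero wells. The counts and medians of the lists below are to be read beside these shares and the median of 0.15. The lists were chosen with earlier results of these data known. A list that exceeds these shares is therefore a description and not a test.

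Lymphatic surface and secreted genes were mostly higher in Prox1-positive wells. Of 11 members 9 were at least 2-fold higher and 2 lower, with a median log2 ratio of 2.79, or 5.07 without the 7 contrary wells. Mmrn1, by whose reads 4 of those wells were picked, is a member of this list. By the stricter rule 7 were higher and 2 lower. The scavenger receptors of hyaluronan and other ligands, Stab1 and Stab2, and the secreted glycoprotein gene Mmrn1 stood out by the share of wells that held them.

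Mmrn1 (chromosome 6, 60924976 to 60989378, plus strand) ran from 0 through a median of 483 to 3359 CPM per Prox1-positive well, and from 0 through a median of 0 to 1177 per Prox1-zero well. It had reads in 19 of 27 Prox1-positive wells (70.4%, 49.8 to 86.2, or 73.1% thinned) and in 5 of 47 Prox1-zero wells (10.6%, 3.55 to 23.1, or 6.67% thinned). The summed level was 769 CPM (757 to 780.1) against 19.4 (17.7 to 21.2), a log2 ratio of 5.24. Nearly all of the Prox1-zero reads sat in the 4 contrary wells of that side, which were picked by their Mmrn1 reads. The level of 0.0425 CPM and the ratio of 9.69 without them therefore follow from that choice.

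Stab2 (chromosome 10, 86841198 to 87008025, minus strand) ran from 0 through 772 to 4114 CPM per Prox1-positive well, and from 0 through 0 to 393 per Prox1-zero well. Its summed level was 1084 CPM (1070.3 to 1097) against 5.29 (4.43 to 6.27), with reads in 20 of 27 and 3 of 47 wells and a log2 ratio of 7.43. The ranges overlapped, since some Prox1-positive wells held no read of either gene, while the 4 contrary Prox1-zero wells held many of Mmrn1. Some of these 4 also held Stab2. Without the contrary wells 1 read of each gene was left on the Prox1-zero side. Mmrn1, Stab2 or Tbx1 was found in 25 of 27 Prox1-positive and 6 of 47 Prox1-zero wells, and all 3 together in 14 and 2.

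The promoters of these 2 genes are printed because they belong to the genes that separate the sides on the lymphatic side, from 250 bases before to 50 bases after the start in the RefSeq table (GRCm38.p6), 5′ to 3′ along the gene. Mmrn1 is chr6:60944067-60944366 on the plus strand, inside the GENCODE gene, and Stab2 chr10:87007893-87008192 on the minus strand. Capitals mark matches, on either strand, to the letters of 4 motifs: AGGAAG (ETS family), AACAAT (SOX), AGGTCA (NR2F) and TGGGAA (RBPJ). No match overlapped another in the promoters shown.
Mmrn1: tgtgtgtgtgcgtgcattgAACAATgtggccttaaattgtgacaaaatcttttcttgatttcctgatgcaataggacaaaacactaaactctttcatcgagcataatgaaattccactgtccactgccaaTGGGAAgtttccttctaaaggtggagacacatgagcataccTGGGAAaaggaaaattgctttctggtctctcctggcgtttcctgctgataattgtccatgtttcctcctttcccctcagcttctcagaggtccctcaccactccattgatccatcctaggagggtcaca
Stab2: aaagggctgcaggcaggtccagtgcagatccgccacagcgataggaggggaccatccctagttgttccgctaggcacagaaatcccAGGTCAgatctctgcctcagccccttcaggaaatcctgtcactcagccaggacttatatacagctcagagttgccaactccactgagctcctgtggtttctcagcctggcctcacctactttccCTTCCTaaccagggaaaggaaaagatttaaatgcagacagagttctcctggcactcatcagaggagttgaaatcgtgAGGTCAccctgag
Mmrn1 held 1 SOX and 2 RBPJ matches and Stab2 1 ETS and 2 NR2F matches. Such words are common: of 27025 mouse promoters 35.1% hold the ETS letters, 10.9% the SOX, 16.04% the NR2F and 25.5% the RBPJ letters. Of the 9 lymphatic surface and secreted genes whose promoter was given, 3 held the ETS, 1 the SOX, 2 the NR2F and 3 the RBPJ letters.

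Other members differed in how many wells carried them. Stab1 stood at 722 CPM (711 to 734) in Prox1-positive wells and 92.7 (88.99 to 96.6) in Prox1-zero wells, with reads in 25 of 27 and 22 of 47. Thy1, a small surface glycoprotein, stood at 62.4 and 8.19 CPM, with reads in 16 of 27 and 2 of 47 wells. Fgl2, a fibrinogen-like protein, had 140.5 CPM (135.6 to 145.4) in 7 Prox1-positive wells and 0 reads in 47 Prox1-zero wells. By read count it was at least 1178-fold higher, against a floor of 3 reads over the side. Such folds by read count, here and below, cover the counting of reads and not the spread among cells. A share of 0 in 47 wells has a limit of 6.38%, so the fold among cells can be far smaller.

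The receptor genes most used to name lymphatic vessels were found in fewer wells than Stab1. Flt4, the VEGF-C receptor, stood at 130 CPM (125.7 to 135.2) in Prox1-positive and 51.3 (48.6 to 54.2) in Prox1-zero wells, a log2 ratio of 1.33, with reads in 17 of 27 and 11 of 47. Lyve1, a hyaluronan receptor, stood at 202.3 and 34.6 CPM but in only 6 of 27 and 3 of 47 wells. Pdpn, the gene of podoplanin, stood at 70.7 and 10.5 CPM, in 7 of 27 and 4 of 47 wells. For Pdpn 64.2% of the Prox1-positive reads and 96.2% of the Prox1-zero reads came from 1 well each, and its ratio turned to -0.59 with pool B left out. Nrp2, a co-receptor of Flt4, was lower, at 36.2 CPM against 89.5 and a log2 ratio of -1.28.

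**Figure D2:**
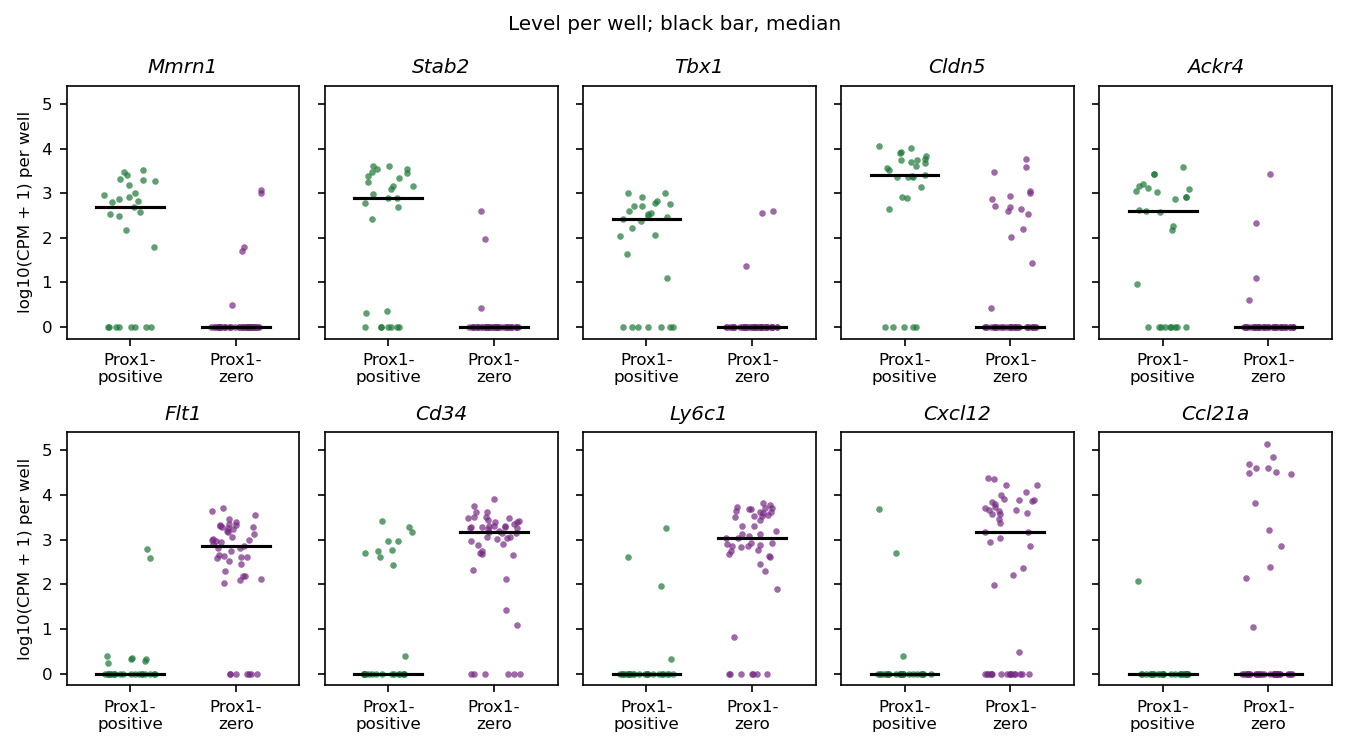
Level per well as log10(CPM + 1) for 5 genes higher (top row) and 5 genes lower (bottom row) in Prox1-positive wells, left in each panel, than in Prox1-zero wells, right. Each point is a well and the black bar is the median. The medians of Mmrn1, Stab2, Tbx1, Cldn5 and Ackr4 lie above 0 on the left and at 0 on the right, and those of Flt1, Cd34, Ly6c1 and Cxcl12 the other way round, while Ccl21a has a median of 0 on both sides.

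Transcription factors that act beside Prox1 in lymphatic development were higher for 6 of 10 members and lower for 2, with a median log2 ratio of 1.88 (2.45 without the contrary wells). Tbx1, a T-box factor needed for lymphatic growth in mice, ran from 0 through a median of 261.6 to 1007 CPM per Prox1-positive well and from 0 through 0 to 396 per Prox1-zero well. It summed to 345.6 CPM (337.9 to 353.3) and 14.6 (13.1 to 16.1), with reads in 20 of 27 and 3 of 47 wells. Nr2f2, the COUP-TFII gene, which switches Prox1 on in embryonic veins, stood at 123.9 and 27.6 CPM in 18 of 27 and 12 of 47 wells. Maf stood at 94.4 and 13.2 CPM, and Nfatc1 at 248.2 and 53.2. Foxc2, a valve factor, had 46.5 CPM in 7 Prox1-positive wells and 0 reads in Prox1-zero wells, at least 389.6-fold higher by read count.

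Sox18, which starts Prox1 expression in the embryo, went the other way: 401 CPM (393 to 409) in Prox1-positive and 979.8 (967.6 to 992) in Prox1-zero wells, with reads in 18 of 27 and 38 of 47. Gata2 was also lower, at 54.9 against 161.3 CPM, but not in every pool: its log2 ratio was -3.87 in pool B and 0.32 in pool A. Hhex and Hoxd8 were within 2-fold, with log2 ratios of -0.43 and -0.31.

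Blood endothelial markers were lower in Prox1-positive wells for 13 of 15 members, with 0 higher and 2 within 2-fold, and 11 were lower by the stricter rule. The median log2 ratio was -3.80, and -5.60 without the 7 contrary wells. The size of these ratios therefore depends on a few wells. The direction was the same with and without them. Those wells were picked after their values were seen, so leaving them out is no test of the direction.

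Flt1 (chromosome 5, 147561604 to 147726011, minus strand), the VEGFR-1 gene, ran from 0 through 0 to 617 CPM per Prox1-positive well and from 0 through a median of 708 to 5106 per Prox1-zero well. It had reads in 8 of 27 Prox1-positive wells (29.6%, 13.8 to 50.2) and 40 of 47 Prox1-zero wells (85.1%, 71.7 to 93.8), or 7.69% and 86.7% with wells thinned. The summed level was 43.9 CPM (41.2 to 46.8) against 1146 (1133 to 1160), a log2 ratio of -4.67. Of the 8 Prox1-positive wells 6 held exactly 1 Flt1 read and at least 10 Prox1 reads, and without the contrary wells the level was 0.298 CPM against 1227.

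Cd34 (chromosome 1, 194938819 to 194961279, plus strand), a sialomucin of blood vessel walls, separated the sides less sharply. It ran from 0 through 0 to 2604 CPM per Prox1-positive well and from 0 through 1463 to 8284 per Prox1-zero well. The summed level was 362.9 CPM (355.1 to 370.8) against 1757 (1741 to 1774), with reads in 11 of 27 and 41 of 47 wells and a log2 ratio of -2.27. With the contrary wells left out it was still found in 8 of 24 Prox1-positive wells, at 264.9 CPM, where Flt1 was left with 1 read in each of 6.

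The promoters of Flt1 (chr5:147725962-147726261, minus strand) and Cd34 (chr1:194938571-194938870, plus strand) are shown as those of the 2 genes that mark the blood side, with the same window, source and capitals as above.
Flt1: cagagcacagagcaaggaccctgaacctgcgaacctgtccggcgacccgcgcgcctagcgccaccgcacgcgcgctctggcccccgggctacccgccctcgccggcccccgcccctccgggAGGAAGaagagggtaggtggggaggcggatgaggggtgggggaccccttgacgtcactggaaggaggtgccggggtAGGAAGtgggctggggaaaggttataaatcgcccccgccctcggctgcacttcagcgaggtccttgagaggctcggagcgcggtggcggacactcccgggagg
Cd34: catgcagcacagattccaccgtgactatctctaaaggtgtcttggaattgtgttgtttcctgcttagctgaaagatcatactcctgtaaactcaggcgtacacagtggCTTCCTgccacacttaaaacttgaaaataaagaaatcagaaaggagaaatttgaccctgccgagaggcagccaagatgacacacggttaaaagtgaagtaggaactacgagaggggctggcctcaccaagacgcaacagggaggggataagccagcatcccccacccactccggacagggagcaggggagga
Flt1 held 2 ETS matches and Cd34 1. Of the 9 blood endothelial markers whose promoter was given, 6 held the ETS letters, 1 the SOX, 3 the NR2F and 2 the RBPJ letters. Among the genes named by the rule below, the ETS letters stood in 5 of 11 promoters on the higher and 7 of 11 on the lower side. The SOX letters stood in 1 and 0 of these promoters, the NR2F letters in 2 and 0 and the RBPJ letters in 2 and 3. A match is a description of letters, and binding of a factor was not measured.

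Several other blood markers were found mainly in Prox1-zero wells. Ly6c1, a surface antigen of blood endothelium, had reads in 4 of 27 Prox1-positive and 40 of 47 Prox1-zero wells, at 55.9 and 1826 CPM. Nrp1, a VEGF-A co-receptor, had 45.1 and 1134 CPM, and the matrix gene Sparcl1 52.7 and 1807. Sox17, an arterial SOX factor, had 0 reads in 27 Prox1-positive wells and 494 CPM (486 to 503) in 21 of 47 Prox1-zero wells. That is at least 3713-fold lower by read count. Flt1, Ly6c1 and Nrp1 were found together in 2 Prox1-positive and 35 Prox1-zero wells, and none of the 3 in 18 and 5.

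Several genes often used as blood markers had high levels on both sides, although Plvap and Eng are among the 13 members counted as lower above. Plvap, the diaphragm protein of fenestrae and caveolae, had reads in 25 of 27 and 45 of 47 wells, at 2506 and 6119 CPM. Eng stood at 969 and 2073 CPM, and Kdr, the main VEGF-A receptor, at 700.4 and 1199. Endothelial genes common to all vessels were within 2-fold for 8 of 12 members, with a median of -0.41. Of the others 2 were higher and 2 lower, or 1 and 3 without the contrary wells. Cdh5, which encodes VE-cadherin, stood at 138.6 and 195.4 CPM, in 24 of 27 and 42 of 47 wells. S1pr1, the sphingosine 1-phosphate receptor, stood at 540.3 and 531 CPM, in 27 of 27 and 41 of 47.

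Markers of several kinds of blood vessel were counted, and not every list lay on the Prox1-zero side. Markers of high endothelial venules were lower in Prox1-positive wells for 6 of 9 measured members and higher for 0. Their median was -1.29 (-2.53 without the contrary wells). Capillary markers were lower for 6 of 8 and higher for 1, with a median of -1.30. Arterial markers were lower for 3 of 9 and higher for 2 (median -0.01). Venous markers were lower for 1 of 6 and higher for 3 (median 0.52). Chst4 and Fut7 make the sulphated and fucosylated sugars that L-selectin binds. Chst4 had 54.4 CPM in 2 Prox1-positive and 176.5 CPM in 10 Prox1-zero wells, and Fut7 64.6 CPM in 2 and 197.9 CPM in 12. Both Prox1-positive wells were contrary wells, and without them either gene had 0 reads on that side.

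Glycam1, a mucin that carries those sugars, was less tied to a side. It had 1505 CPM (1489 to 1522) in 9 Prox1-positive wells and 4072 (4047 to 4097) in 19 Prox1-zero wells, with 85.5% of the Prox1-positive reads in 1 contrary well. The remaining level without the contrary wells was 145.8 CPM in 7 of 24 wells.

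Capillary and arterial genes marked other Prox1-zero wells. Rgcc, a capillary gene, had 12.1 and 1121 CPM in 4 of 27 and 24 of 47 wells, Gpihbp1, the anchor of lipoprotein lipase in capillaries, 19.1 and 359.1 CPM in 2 and 22, and Car4, a carbonic anhydrase, 0 and 121.4 CPM in 0 and 9. The arterial genes Hey1 and Sema3g had 0 reads in Prox1-positive wells and 40.8 and 44.4 CPM in 7 and 4 Prox1-zero wells. At least 1 of Sox17, Gja5, Hey1 and Sema3g was found in 1 Prox1-positive and 25 Prox1-zero wells. Of the Prox1-zero wells 16 held Sox17 without Glycam1 and 5 held both.

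Some genes of these blood vessel lists were higher in Prox1-positive wells. Cd36, a fatty acid transporter listed with capillaries, was higher in Prox1-positive wells, at 2617 CPM (2596 to 2638) against 584 (575 to 594), with reads in 20 of 27 and 15 of 47 wells. Cpe, a carboxypeptidase listed with veins, had 1087 and 9.66 CPM in 22 of 27 and 7 of 47 wells. Without the contrary wells Cpe stood at 1215 CPM in Prox1-positive and 0.808 CPM in Prox1-zero wells. Bmx, a kinase listed with arteries, had 77.7 and 12.7 CPM, with 88.4% of the Prox1-zero reads in 1 well.

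Ccl21a, a chemokine that draws dendritic cells and naive T cells into the node, is listed here with lymphatic genes but is also made by high endothelial venules of mouse lymph nodes. It was the gene with the lowest ratio of all those named. All Prox1-positive reads came from 1 contrary well (4.93 CPM, 4.05 to 5.93), while Prox1-zero wells held 222187 reads (8833 CPM, 8797 to 8870) in 14 of 47 wells (29.8%, 17.3 to 44.9). Of these 14 wells 13 also held Glycam1 and 9 held Chst4, and 0 held Mmrn1. The highest well reached 139988 CPM, and 10 wells had at least 1000 CPM.

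Ccl21a (chromosome 4, 42772860 to 42773993, minus strand) has near-identical copies, and the reads can be split among them. Ccl21b, Gm13304 and Gm10591 held 9, 88 and 9 reads in Prox1-zero wells and 0 in Prox1-positive wells. The level of Ccl21a alone is therefore uncertain, but the sum of the 4 is set by it. The well with Ptprc reads held 44940 of the Ccl21a reads.

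Among the Prox1-positive wells, a marker gene of the sinus ceiling was found in more wells than a marker gene of the sinus floor. Ackr4, a scavenging receptor for CCL19 and CCL21 that marks the ceiling of the subcapsular sinus, had 699 CPM (688 to 710.4) in 18 of 27 Prox1-positive wells and 41.9 (39.5 to 44.6) in 4 of 47 Prox1-zero wells. Per well it ran from 0 through 392 to 3896 CPM on the Prox1-positive side and from 0 through 0 to 2732 on the Prox1-zero side. Without the contrary wells Ackr4 stood at 781.5 CPM in Prox1-positive and 0.0425 CPM in Prox1-zero wells. Madcam1, an adhesion ligand of integrin alpha4 beta7 that marks the floor, had 225.4 CPM (219.2 to 231.7) in 6 and 0.239 (0.0875 to 0.519) in 2 wells. Ackr4 without Madcam1 was found in 16 Prox1-positive wells, Madcam1 without Ackr4 in 4, both in 2 and neither in 5.

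All 6 sinus floor genes were higher in Prox1-positive wells, with a median log2 ratio of 5.35 (6.85 with zero genes at their bound), but the pools differed. The median was 7.90 in pool B and 0.34 in pool A, and 1 of the 6, Csf1, met the stricter rule. Madcam1 stood above 500 reads in 4 wells, B-01, B-33, B-55 and B-74, all of pool B. Coch, a secreted matrix protein, had 292.3 CPM in 2 Prox1-positive wells, with 57.9% of its reads in 1 of them. In pool A Madcam1 and Coch had at most 1 read on either side, with log2 ratios of 0.01 and -0.12. Ccl20, the ligand of CCR6, had 77.3 CPM with 83.7% of reads in 1 well, and Itga2b, an integrin subunit also known from platelets, had 22.1 CPM in 5 wells. Csf1, the macrophage growth factor, was spread wider, with 359.6 and 28.3 CPM in 19 of 27 and 9 of 47 wells.

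Of 5 sinus ceiling genes 3 were higher and 2, Btnl9 and Cav1, within 2-fold, with a median of 3.47. Bmp4 stood at 99.7 and 8.11 CPM in 6 of 27 and 3 of 47 wells. Of the 4 medullary sinus markers Mrc1, the mannose receptor gene, was measured, with 8.70 CPM in 2 Prox1-positive wells and 0 reads in Prox1-zero wells, while Marco, Clec4g and Cd209b had 0 reads on both sides. Lymphatic valve genes were higher for 6 of 9 members and lower for 1 (median 2.17). Fn1, the fibronectin gene, had 618 and 72.95 CPM in 17 of 27 and 5 of 47 wells, and Itga9, a fibronectin receptor subunit of valves, 85.6 and 18.2 CPM in 13 and 2. Foxc2 and Itga9 were found together in 4 Prox1-positive wells and 0 Prox1-zero wells.

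Of the VEGF and TIE genes 5 of 11 measured members were higher and 4 lower (median 0.21), among them the receptors described above. Without the contrary wells 3 of 10 were higher and 4 lower, and the median turned to -0.25. Tek, the angiopoietin receptor TIE2, stood at 295.96 and 141.5 CPM (log2 ratio 1.06) and Tie1 at 424 and 366.7 (0.21). Angpt2, which antagonises TIE2, had 0 reads in Prox1-positive and 24.5 CPM in 7 Prox1-zero wells. Angpt1, the agonist, had 14.6 CPM in 2 Prox1-positive wells and 0 reads in Prox1-zero wells. In either gene a few wells carried the level.

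Notch genes split by member, with 3 of 9 higher and 3 lower. Notch4 had 0 reads in Prox1-positive and 44.5 CPM in 17 of 47 Prox1-zero wells, at least 334.2-fold lower by read count. Notch1 stood at 356.4 and 220.97 CPM and was within 2-fold. Notch2 stood at 77.6 and 13.4 CPM, and the target Hes1 at 201.9 and 28.4 CPM, in 18 of 27 and 14 of 47 wells.

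BMP and TGF-beta genes were lower for 6 of 12 members and higher for 2, with a median of -0.93. Id1, a direct BMP target, had 5.24 CPM (4.33 to 6.27) in 1 Prox1-positive well and 721 (710.3 to 731) in 29 of 47 Prox1-zero wells, a log2 ratio of -6.85. Id3 stood at 407 and 1003 CPM in 11 and 33 wells, with log2 ratios of -5.63 in pool B and -0.21 in pool A. The ligands Bmp2 and Bmp4 were higher, at 74.7 and 13.5 CPM and at 99.7 and 8.11 CPM, with over 95% of the Prox1-zero reads of either gene in 1 well. Bmp2 was higher in pool B (144.1 and 0.113 CPM) but not in pool A, where it had 0 reads in Prox1-positive wells and 1.09 CPM in Prox1-zero wells (log2 ratio -1.06).

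**Figure D3:**
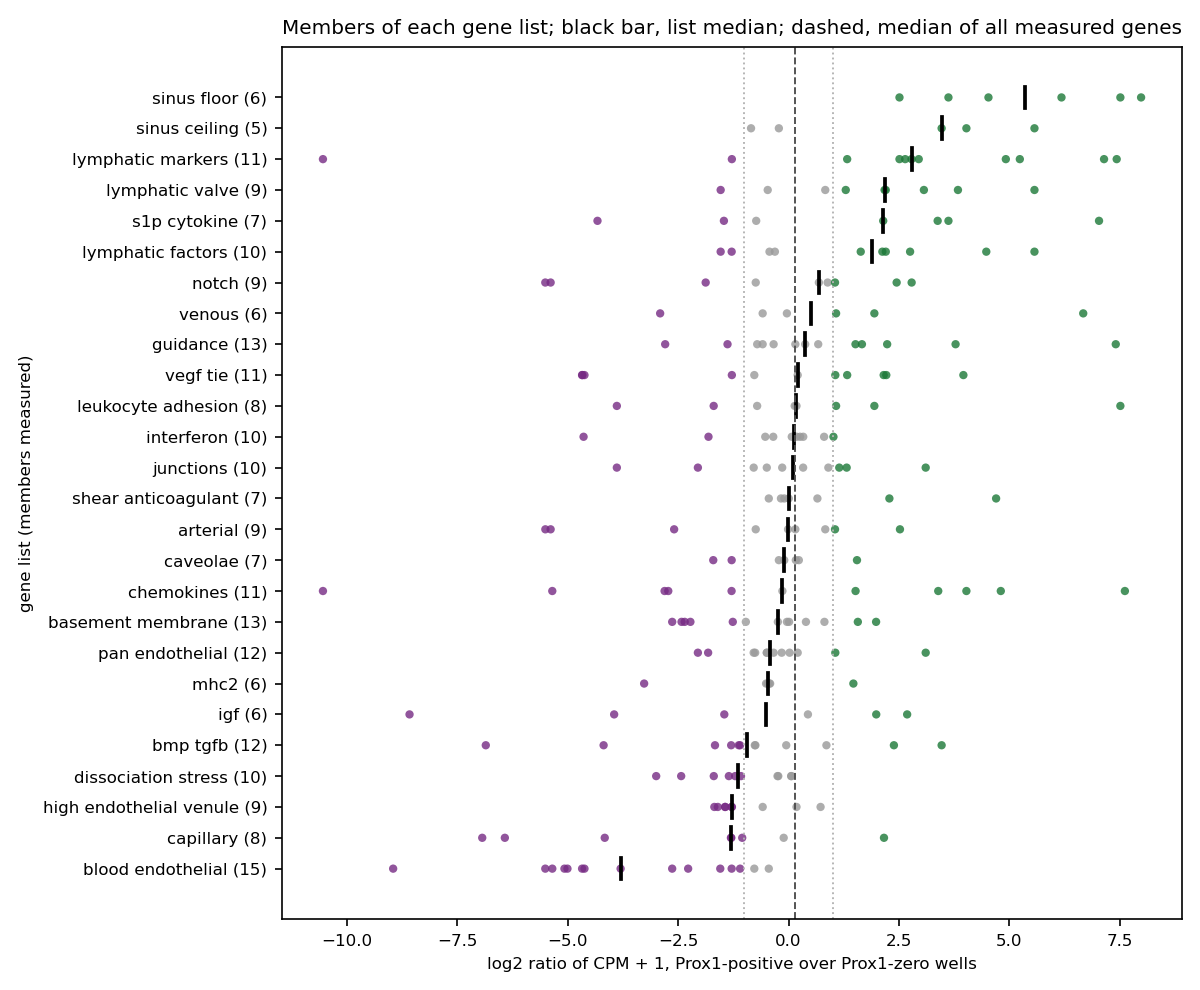
Log2 ratio of CPM + 1, Prox1-positive over Prox1-zero wells, for the measured members (points) of each gene list (rows, with the number measured). Green points are at least 2-fold higher, purple points at least 2-fold lower and grey points between, the black bar is the median of the list and the dashed line the median of all measured genes, 0.15. The sinus floor list lies farthest right with a median of 5.35 and the blood endothelial list farthest left with -3.80.

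Chemokine genes were higher for 5 of 11 measured members and lower for 5 (median -0.14), or lower for 6 without the contrary wells (median -1.21). Cxcl12, which retains cells that carry CXCR4, ran from 0 through 0 to 4791 CPM per Prox1-positive well and from 0 through 1489 to 24248 per Prox1-zero well. It summed to 113.8 CPM (109.4 to 118.3) against 4677 (4651 to 4704) with reads in 3 of 27 and 31 of 47 wells, and to 0.0496 against 5005 without the contrary wells. Cxcl10, an interferon-induced ligand of CXCR3, had 195.2 CPM in 4 Prox1-positive wells and 0 reads in Prox1-zero wells. Of the scavenging receptors Ackr2, for inflammatory CC chemokines, stood at 262.9 and 24.2 CPM and Ackr3, for CXCL12, at 422 and 146.7, while Ackr1, a marker of venules, stood at 70.8 and 174.6. Ackr3 differed between the pools, with a log2 ratio of 2.99 in pool A and -0.46 in pool B, where it stood at 169.8 and 233.4 CPM.

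Of the genes listed under sphingosine 1-phosphate and cytokines 4 of 7 measured members were higher and 2 lower. The median was 2.14, with 0.41 in pool A and 6.09 in pool B. Csf1, described above, is among the higher members and Cd274 among the lower. Il7, the T cell survival cytokine, had 104.8 CPM in 10 of 27 and 9.18 in 2 of 47 wells. Il33, an alarmin, had 134.95 CPM (130.2 to 140) in 7 Prox1-positive wells, 56.3% of it in 1 well, and 1 read in Prox1-zero wells. Spns2, the exporter of sphingosine 1-phosphate, stood at 191.1 and 42.5 CPM. Plpp3, a phosphatase that degrades it, was lower, at 84.1 (80.4 to 88.02) against 1706 CPM (1690 to 1722), with reads in 9 of 27 and 38 of 47 wells.

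Junction genes were higher for 3 of 10 members and lower for 2. Cldn5, the claudin of endothelial tight junctions (chromosome 16, 18776847 to 18778262, plus strand), ran from 0 through 2625 to 11573 CPM per Prox1-positive well and from 0 through 0 to 5870.5 per Prox1-zero well. It summed to 3612 CPM (3588 to 3637) against 419 (411 to 427), with reads in 22 of 27 and 16 of 47 wells. Jam2 and Esam, adhesion proteins of blood vessel junctions, were lower, at 27.03 and 414 CPM and at 367.1 and 1526 CPM. The list therefore held members at both ends, with a median of 0.09.

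Basement membrane genes were lower for 5 of 13 members and higher for 2, with a median of -0.24. The collagen IV chains Col4a1 and Col4a2 stood at 146.3 and 686 CPM and at 97.7 and 503 CPM. Perlecan, encoded by Hspg2, stood at 84.2 and 528 CPM, in 17 of 27 and 42 of 47 wells. Laminin alpha4, encoded by Lama4, was higher, at 349.1 and 116.97 CPM.

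Guidance genes were higher for 5 of 13 members and lower for 2. The secreted semaphorins Sema3a and Sema3d stood apart: Sema3d had 467 CPM (458 to 476) in 19 of 27 Prox1-positive wells and 33 (30.8 to 35.3) in 4 of 47 Prox1-zero wells. Sema3a had 175.8 CPM (170.3 to 181.3) in 7 Prox1-positive wells and 1 read in Prox1-zero wells. Efnb1, an ephrin, was lower, at 24.2 and 173.5 CPM.

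Insulin-like growth factor genes split as well, with 2 of 6 measured members higher and 3 lower. Igfbp7, a binding protein of vessel walls, stood at 2509.9 and 6878 CPM in 26 of 27 and 47 of 47 wells. Igfbp3 had 2.44 CPM in 1 Prox1-positive well and 1317 in 17 Prox1-zero wells, 45.2% of it in 1 well. Igfbp4 was higher, at 423 and 64.8 CPM. Of the anticoagulant and flow-sensitive genes 2 of 7, Procr (345.2 and 70.1 CPM) and Plat (248.3 and 8.59 CPM), were higher and the others, with the flow-induced factor Klf2 at 304.04 and 192.9 CPM, were within 2-fold. Among caveolar genes Sdpr (cavin-2) was higher, at 741 and 252.4 CPM, with 2 of 7 lower and 4 within 2-fold. Leukocyte adhesion genes were higher for 3 of 8 members and lower for 2. Vcam1 stood at 371.3 and 95.8 CPM and Icam1 at 791 and 374.5 or, without the contrary wells, at 611 and 368.98, where its log2 ratio of 1.08 became 0.73.

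The 15 genes with the highest ratios under the stricter rule were, in order, Ccdc3, Stab2, Sema3a, Ajuba, Pkhd1l1, Fhdc1, Fgl2, Il33, Foxp2, Ltbp1, Tgfb3, Hivep3, Armcx4, Chrnb1 and Rassf10. Most stood in a part of the wells only, 7 to 15 of 27 apart from Stab2. Ccdc3, a secreted coiled-coil protein (chromosome 2, 5137776 to 5230878, plus strand), had 277.5 CPM (270.7 to 284.5) in 7 Prox1-positive wells and 0 reads in Prox1-zero wells. That is at least 2327-fold higher by read count. Foxp2, a forkhead factor, had the widest spread after Stab2, with 195.4 CPM (190 to 201.3) in 15 of 27 Prox1-positive wells and 0.517 (0.275 to 0.884) in 1 Prox1-zero well.

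Matrix and TGF-beta genes were among them. Ltbp1, which stores latent TGF-beta in the matrix, had 194.6 CPM in 13 Prox1-positive wells and 0.557 in 1 Prox1-zero well, and Tgfb3, a TGF-beta ligand, had 122.4 CPM in 7 Prox1-positive wells and 0 reads in Prox1-zero wells. Pkhd1l1, a large membrane protein related to fibrocystin, had 216.7 CPM in 10 Prox1-positive wells and 0.517 CPM in 1 Prox1-zero well. Ajuba, a LIM adaptor of junctions, had 144.7 CPM in 8 Prox1-positive wells and 0 reads in Prox1-zero wells.

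The 15 genes with the lowest ratios were Ccl21a, Sox17, Igfbp3, Esm1, Pqlc1, Efr3b, Itih5, Lrrc8c, Pcdh1, Exoc3l2, Id1, Col13a1, Pdgfd, Tmem255b and Rgcc. Esm1, the proteoglycan endocan (chromosome 13, 113209659 to 113218098, plus strand), had 1 read in Prox1-positive wells and 198.2 CPM (192.8 to 203.8) in 16 of 47 Prox1-zero wells. Lrrc8c, a subunit of volume-regulated anion channels, had 1.51 CPM (1.04 to 2.11) in 2 Prox1-positive wells and 388 (380.1 to 395.5) in 25 of 47 Prox1-zero wells. Itih5, a hyaluronan-binding matrix protein, had 1.02 and 312.5 CPM in 1 and 24 wells. Pdgfd, a growth factor for mural cells, had 0 reads in Prox1-positive wells and 111.2 CPM in 13 Prox1-zero wells, at least 835-fold lower by read count.

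The pools were compared within themselves. Pool A (14 Prox1-positive and 26 Prox1-zero wells) and pool B (12 and 14) each gave ratios, and pool C, with 1 and 7 wells, gave none. Of the measured genes 2468 were past 2-fold in the same direction in both pools and 1531 in opposite directions. The lymphatic list had medians of 2.80 in pool A and 4.51 in pool B, and the blood list -2.61 and -7.68. In pool B Flt1 stood at 0.428 against 1980 CPM, and in pool A, which holds the 3 wells with 1 Prox1 read, at 92.7 against 846.

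**Figure D4:**
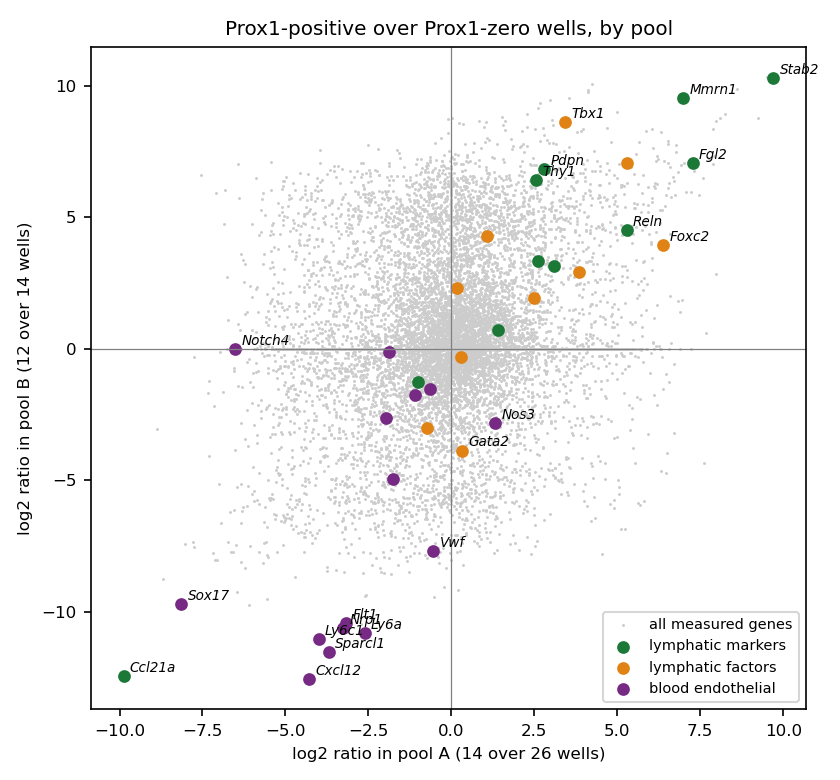
Log2 ratio of CPM + 1, Prox1-positive over Prox1-zero wells, in pool A (x axis, 14 over 26 wells) and pool B (y axis, 12 over 14 wells). Grey points are all measured genes, green points lymphatic surface and secreted genes, orange points lymphatic transcription factors and purple points blood endothelial markers. Stab2 and Mmrn1 lie at the upper right, and Cxcl12, Ly6c1 and Sox17 at the lower left with larger ratios in pool B than in pool A.

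The 2 marker lists were also counted per well. Prox1-positive wells held a median of 5 of 11 lymphatic markers (0 to 8) and 5 of 15 blood markers (1 to 11), and Prox1-zero wells a median of 2 (0 to 6) and 12 (1 to 14). The ranges of both counts overlapped.

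**Figure D5:**
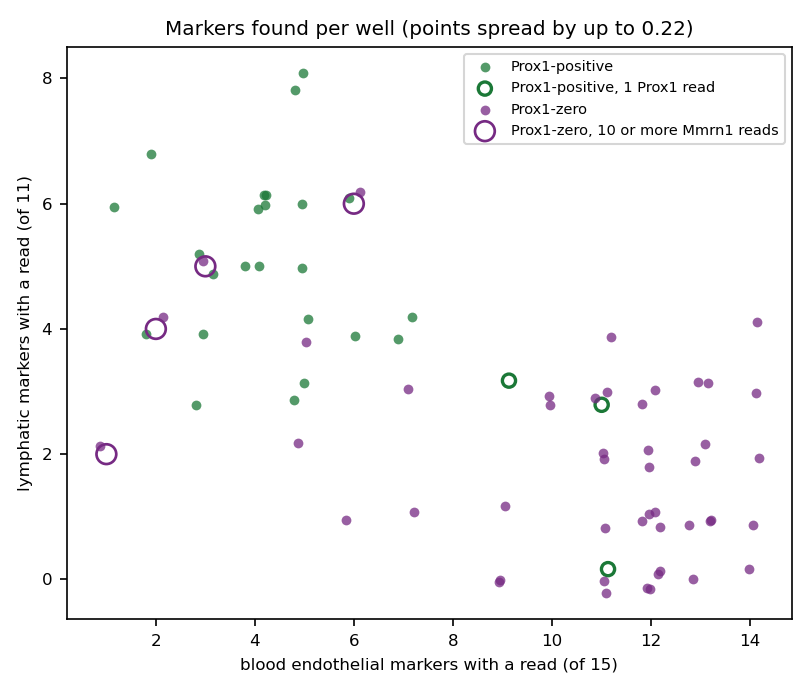
Number of blood endothelial markers with a read (x axis, of 15) and of lymphatic markers with a read (y axis, of 11) in each well, with points spread by up to 0.22 so that they do not hide each other. Green points are Prox1-positive and purple points Prox1-zero wells, and open rings mark the 3 wells with 1 Prox1 read and the 4 Prox1-zero wells with 10 or more Mmrn1 reads. Prox1-positive wells gather at the upper left, with a median of 5 lymphatic markers, and Prox1-zero wells at the lower right, with a median of 12 blood markers.

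Genes of cell state and of other cell types were checked on the same wells. Immediate early and heat shock genes, which respond to tissue dissociation, were lower for 6 of 10 members and higher for 0 (median -1.14): Egr1 stood at 1084 and 2768 CPM and Hspa1a at 131.3 and 1055, while Fos stood at 4077 and 4789. Their part in the other differences was not tested. Interferon genes were within 2-fold for 7 of 10 members (median 0.13) and MHC class II genes for 4 of 6 (median -0.45). Without the contrary wells 5 of the 6 MHC class II genes were lower and 0 higher (median -1.45). Of 8 proliferation genes only Ccna2 was measured, with 2.04 CPM in 4 Prox1-positive wells and 33 CPM in 1 Prox1-zero well, and Mki67 had 6.88 CPM in 1 and 63.9 CPM in 2 wells. All Prox1-zero reads of Ccna2 and 99.8% of those of Mki67 came from a contrary well. Without the contrary wells both directions turned, the log2 ratio of Ccna2 to 1.71 (-3.48 with them) and that of Mki67 to 2.89 (-3.04 with them).

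Markers of other cells were rare. Of 12 haematopoietic genes 1, Coro1a, was measured (12.4 CPM in 2 Prox1-positive wells, both contrary, and 2.54 CPM in 2 Prox1-zero wells), and the whole list summed to 0 to 258.5 CPM per Prox1-positive well and 0 to 208.5 per Prox1-zero well. Cd3e and Itgam had 0 reads on both sides. Of 12 stromal genes Dcn and Rgs5 were measured, each in 3 Prox1-positive wells and 0 Prox1-zero wells (36.9 and 18.95 CPM), with the list at 0 to 929 CPM per Prox1-positive well and 0 to 61.2 per Prox1-zero well, and Pdgfrb, Pdgfra and Acta2 at 0 reads. Their part in the results was not tested. Of 5 epithelial genes none was measured. The platelet genes Pf4 and Itga2b were measured in 5 and 5 Prox1-positive wells and in 4 and 0 Prox1-zero wells.

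Wells of other sorts were set beside these. Madcam1 stood at 225.4 CPM in 22.2% of the GFP- Prox1-positive wells, against 1528 CPM in 93.6% of the 78 GFP+ lymph node wells with a Prox1 read, and Ackr4 at 699 CPM against 0.0132. Mmrn1 and Stab2 stood at 769 and 1084 CPM in the GFP- Prox1-positive wells, against 84.2 and 59.3 CPM in the GFP+ ones. Glycam1 stood at 1505 CPM in 33.3% of wells, against 2695 CPM in 97.4% of the GFP+ ones. The Prox1-zero wells held Flt1 at 1146 and Cd34 at 1757 CPM, against 1171 and 1824 CPM in the 84 GFP- endothelial wells of tumours, which held 0 Prox1 reads. Sparcl1 was also close, at 1807 against 1724 CPM. Other genes were not: Cxcl12 stood at 4677 against 80.6 CPM, Plvap at 6119 against 1194 and Igfbp3 at 1317 against 9147. Cldn5 and Tbx1 were not confined to wells with Prox1 reads. In the tumour wells Cldn5 stood at 3445 CPM in 96.4% and Tbx1 at 58.7 CPM in 39.3%. Ccl21a stood at 8833 CPM in the Prox1-zero wells, against 296.9 CPM in those tumour wells. The sorts differ in gate or tissue, and the differences were not tested.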

How the data were processed

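Read counts per gene were used for wells of mouse lymph node cells, sorted singly and amplified by SMART-seq2 with 20 cDNA cycles and Nextera XT, per the labels' protocols. The authors deposited raw counts per gene on mm10. Per the submitters' processing notes the tools were STAR 2.4.1b, Subread 1.4.6-p2 and FastQC 0.11.4, and which tool served which step is not given in the sources used here. Neither protocol nor notes state a strand-specific kit, so overlapping genes cannot be told apart.

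Wells were matched to labels by name, with 0 columns left over, and 92 rows that repeat a symbol were summed, which left 51734 symbols. Levels are CPM of summed counts with exact Poisson 95% intervals, shares carry exact Clopper-Pearson 95% intervals, and a share of 0 is given with its limit of 3 over the number of wells. Ratios are log2 of CPM plus 1. A gene counted as measured where 1 side reached 1 CPM and held it in 5% of its wells or more. No test was run, since cells are not replicates. Doublets were not called, because cells were sorted into wells, and no 2 wells had identical counts. Reads of amplified cDNA are not molecules.

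The members and the 32 gene lists (264 genes) were chosen with earlier results of these data known. Named genes were the 15 highest and 15 lowest ratios among genes at least 2-fold apart by summed reads and by mean CPM per well, with at least 20 CPM and 25% of wells on the higher side, in the same direction in each pool with at least 5 wells a side, leaving out predicted, ribosomal and mitochondrial names. Prox1 and members of the lists were also named. Some list members are not reported here by name. Of the list genes 3, the cavins, were found under the older symbols Ptrf, Sdpr and Prkcdbp. Alternatives changed the Prox1 minimum, wells, pools, pseudocount, filters, scaling and depth (thinning with a fixed seed). Steps were tested on simulated data and run with Python 3.11.15, numpy 2.4.6, pandas 2.3.3, scipy 1.17.1 and matplotlib 3.10.9. Gene positions are from GENCODE vM21 and promoters from RefSeq.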

Additional observations from a re-analysis of the deposited data

How the results depend on the processing

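In all, 19 alternatives were run, 15 planned and 4, on the contrary wells and the well with Ptprc reads, chosen after seeing the data. The numbers of genes at least 2-fold higher or lower stayed within 1.5 times the reported counts under each. The share higher, 29.2% as reported, ranged from 23.6% with no low gene filter to 43.5% in pool B alone. It was 41.6% without pool A. The median log2 ratio over measured genes, 0.15 as reported, was 0.44 both without pool A and in pool B alone. The median log2 ratio of the blood endothelial list, taken over the members measured under each setting, was -3.80 as reported. It was -5.56 with at least 10 Prox1 reads asked of a Prox1-positive well, -7.10 without pool A and -8.70 in pool B alone. It was -5.51 without the 3 wells of 1 Prox1 read and -5.60 without all 7 contrary wells. The direction was the same throughout (-8.70 to -2.61). The lymphatic list ranged from 2.28 to 5.07 and the lymphatic factors from 1.16 to 2.61. Of the genes at least 2-fold apart among those named in the text and the members of these 3 lists, 91.5% did not change sign under any of the 19, and 10 genes did. The genes named by rank had been chosen for the same direction in pools A and B and by mean CPM per well. Pool A alone, pool B alone and mean CPM per well therefore could not reverse those genes, and the share is higher for that choice. Without pool B the log2 ratio was -0.59 for Pdpn, 0.0814 for Gata2, -4.31 for Bmp2, -0.0858 for Coch, 0.0743 for Id3 and -0.32 for Madcam1. In pool A alone it was 0.32 for Gata2, -1.06 for Bmp2 and -0.12 for Coch. Without pool A it was -0.23 for Ackr3, 2.23 for Ccna2, -2.34 for Coro1a and 3.81 for Mki67, and in pool B alone -0.46 for Ackr3, 2.25 for Ccna2 and 3.84 for Mki67. Without the 4 contrary Prox1-zero wells it was 1.605 for Ccna2 and 2.75 for Mki67, and without all 7 contrary wells 1.71 for Ccna2, 2.89 for Mki67 and -1.90 for Coro1a. Coro1a stood at -1.83 both with at least 10 Prox1 reads asked and without the 3 wells of 1 Prox1 read, and at -0.61 with reads thinned before the split. The cause was not tested. Scaling by the median of ratios raised Prox1-zero levels by 0.15 on the log2 scale, which lowered the ratios. Pool C alone was not run because it held 1 Prox1-positive well. No paired analysis was possible because no result comes from a test and the labels do not pair wells of the 2 sides. The sides were compared within pools A and B instead. Depth left 1 Prox1-positive and 2 Prox1-zero wells too shallow to thin.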
